A study of Homo sapiens with 6 samples.

Results

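The genes described here are 53 DNA replication and nucleotide synthesis genes, measured in Hep3B cells with and without an shRNA against NXN (nucleoredoxin). They were taken from a list of symbols that names the proteins of origin licensing, helicase activation, the replicative polymerases, clamp loading, nucleotide synthesis and G1/S control. No measured value was a criterion of the list, but it was chosen with earlier results of these data known. All 53 were found among the 23406 features of the deposited tables, and all 53 passed the filter on low counts. Hep3B is a human hepatocellular carcinoma (HCC) line that is known to lack functional RB. The cells were labelled wild type and were transduced with lentivirus carrying either a control shRNA (shControl) or the shRNA against NXN (shNXN), and both groups were selected with puromycin. RNA was collected on days 7, 9 and 11, with 1 library per group and day, so that each group had 3 libraries. The labels give neither the hairpin sequence nor whether the cells were cloned. The sources do not say that the days were separate transductions. Without a block, p-values therefore measure the spread between these libraries, day included. In the fit with the day as a block, given below, they measure the spread left after the day.

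DNA replication is prepared in G1 phase, when the origin recognition complex (ORC), CDC6 and CDT1 load the MCM2-7 helicase ring onto DNA. At the start of S phase the kinases CDC7-DBF4 and cyclin E-CDK2 turn on this helicase with CDC45 and the GINS complex, and DNA polymerases alpha, delta and epsilon then copy the strands with the sliding clamp PCNA and its loader RFC. Many of the genes are transcribed under E2F factors, are held off by RB family proteins in quiescent cells, and are read as signs of proliferation in HCC.

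The promoters of 46 of the 53 genes were in the RefSeq table used (GRCh38.p14, 250 bases before to 50 after the first base of the gene, the first window listed for each gene). E2F motifs were searched on both strands as TTTCCCGC, TTTCGCGC, TTTGCCGC and TTTGGCGC, which can overlap each other where the letters run into their reverse complement. At least 1 match was found in 22 of the 46 promoters (47.8%), against 908 of 27305 promoters of all genes (3.33%). The CCAAT box (CCAAT) was in 25 (54.3%) against 35.7%, and the CHR element (TTTGAA or TTTAAA) was in 6 (13%) against 24.3%. A match describes the letters in the window and not a bound site. The promoters of 5 genes on which the comparison below turns are shown 5′ to 3′ over 280 bases, ending 30 bases into the gene, with E2F matches in capitals. The first 3 belong to genes that were lower in shNXN cells, ORC4 at chr2:148021522-148021801 (minus strand), POLE2 at chr14:49688185-49688464 (minus strand) and RFC3 at chr13:33817899-33818178 (plus strand), and the others to genes that were higher, CDT1 at chr16:88803539-88803818 (plus strand) and MCM7 at chr7:100101368-100101647 (minus strand).
ORC4: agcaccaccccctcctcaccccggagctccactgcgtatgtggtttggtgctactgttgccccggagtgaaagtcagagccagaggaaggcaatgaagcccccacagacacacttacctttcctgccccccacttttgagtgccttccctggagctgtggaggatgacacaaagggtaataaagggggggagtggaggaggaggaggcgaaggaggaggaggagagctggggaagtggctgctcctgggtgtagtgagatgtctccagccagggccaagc
POLE2: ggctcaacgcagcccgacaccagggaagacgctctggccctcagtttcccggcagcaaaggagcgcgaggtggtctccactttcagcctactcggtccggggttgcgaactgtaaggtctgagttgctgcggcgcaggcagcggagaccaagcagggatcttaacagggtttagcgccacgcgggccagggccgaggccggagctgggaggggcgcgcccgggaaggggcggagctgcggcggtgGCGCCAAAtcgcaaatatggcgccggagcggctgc
RFC3: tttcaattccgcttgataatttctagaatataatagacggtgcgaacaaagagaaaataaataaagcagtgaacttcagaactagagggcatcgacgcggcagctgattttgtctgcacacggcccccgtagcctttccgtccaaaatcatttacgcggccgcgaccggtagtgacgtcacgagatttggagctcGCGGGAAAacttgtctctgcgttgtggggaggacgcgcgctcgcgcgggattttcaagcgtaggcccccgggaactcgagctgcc
CDT1: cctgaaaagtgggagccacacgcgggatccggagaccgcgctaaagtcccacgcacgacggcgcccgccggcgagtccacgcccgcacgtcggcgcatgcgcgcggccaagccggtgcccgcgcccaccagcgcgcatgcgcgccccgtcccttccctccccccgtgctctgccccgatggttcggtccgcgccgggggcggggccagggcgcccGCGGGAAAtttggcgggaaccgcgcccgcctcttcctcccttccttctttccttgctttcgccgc
MCM7: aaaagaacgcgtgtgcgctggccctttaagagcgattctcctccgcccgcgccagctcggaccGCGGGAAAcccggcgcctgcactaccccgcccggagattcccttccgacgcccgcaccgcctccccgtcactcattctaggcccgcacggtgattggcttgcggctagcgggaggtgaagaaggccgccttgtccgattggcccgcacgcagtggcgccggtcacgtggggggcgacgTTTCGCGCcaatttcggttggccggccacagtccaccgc
No E2F match was present in the ORC4 window, 1 each was present in those of POLE2, RFC3 and CDT1, and 2 were present in that of MCM7. In the fit that blocks on the day, described below, a match was found in 5 of 8 promoters of genes called higher, 3 of 8 of genes called lower and 14 of 30 of the other genes. The windows of these 3 sets had a median GC content of 70.2%, 64.2% and 63.5%, against 58.3% over all promoter windows. The part of base composition in the motif shares was not tested.

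Library totals lay between 15349382 and 16332589 counts, and 14071 features were tested. NXN itself was at 181, 138 and 143 counts scaled to library size (CPM) in shControl cells on days 7, 9 and 11 and at 42.7, 47.5 and 39.5 CPM in shNXN cells, and its log2 fold change was -1.83 (SE 0.16, adjusted p = 0.0378 from edgeR). All 11 hepatocyte and hepatoma markers were at a mean of 1 FPKM or more (FPKM, fragments scaled by transcript length and by library size). Their summed level ran from 8280 to 17300 FPKM in shControl cells and from 4350 to 9780 FPKM in shNXN cells. The mean was higher in shNXN cells for 5 of the 11 (APOA1, SERPINA1, FGB, TF and AHSG) and lower for 6. ALB was at 6447, 12145 and 4409 FPKM in shControl cells and at 1084, 489 and 4735 FPKM in shNXN cells, and SERPINA1 was at 1004, 1015 and 936 FPKM and at 1638, 1205 and 1316 FPKM. Of the endothelial markers 2 were at 0 in every library, and of the blood markers CD3E and HBB were at 0 and CD68 was above 1 FPKM. PDGFRB was the fibroblast marker above 1 FPKM. The part of these marker levels in the results below was not tested.

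Log2 fold changes of the replication genes lay on both sides of 0. Of the 53 genes, 28 had a positive and 25 a negative log2 fold change, with a median of 0.05, against a median of 0.03 over all 14071 features. In edgeR's quasi-likelihood test at an adjusted p under 0.05, 1 of the 53 genes (1.89%) was called, ORC4, which was lower. In the same test 477 features (3.39%) were called, of which 451 (3.21% of those tested) were lower. Of the 53 genes, 21 had an unadjusted p under 0.05, against 4625 of all 14071 features. The range of the changes was uneven, since 10 genes (18.9%) lay below -1 on the log2 scale and 0 lay above 1, while over all features 14.8% lay below -1 and 1.32% above 1. Those 10 were ORC3, ORC4, ORC5, CDC7, DBF4, PRIM1, PRIM2, POLE2, RFC3 and CCNE2.

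Because the 2 groups were sampled on the same 3 days, the comparison was also made with the day as a block. In that fit edgeR called 18 of the 53 genes (34.0%), against 23.3% of all features. Lower in shNXN cells were ORC2, ORC3, ORC4, ORC5, CDC7, DBF4, POLE2, RFC3 and CCNE2, 9 genes or 17.0% of the list, the same share as the 17.0% of all features. Higher were CDT1, MCM5, MCM7, POLD1, POLD2, LIG1, TK1, E2F1 and E2F2, again 9 genes or 17.0%, against 6.28% of all features. Every shNXN library was above every shControl library for 15 genes (28.3%), against 19.0% of all features, and below every shControl library for 8 genes (15.1%), against 21.5%. In bulk RNA, fewer cells that express a gene and less RNA of it per cell cannot be told apart.

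**Figure D1:**
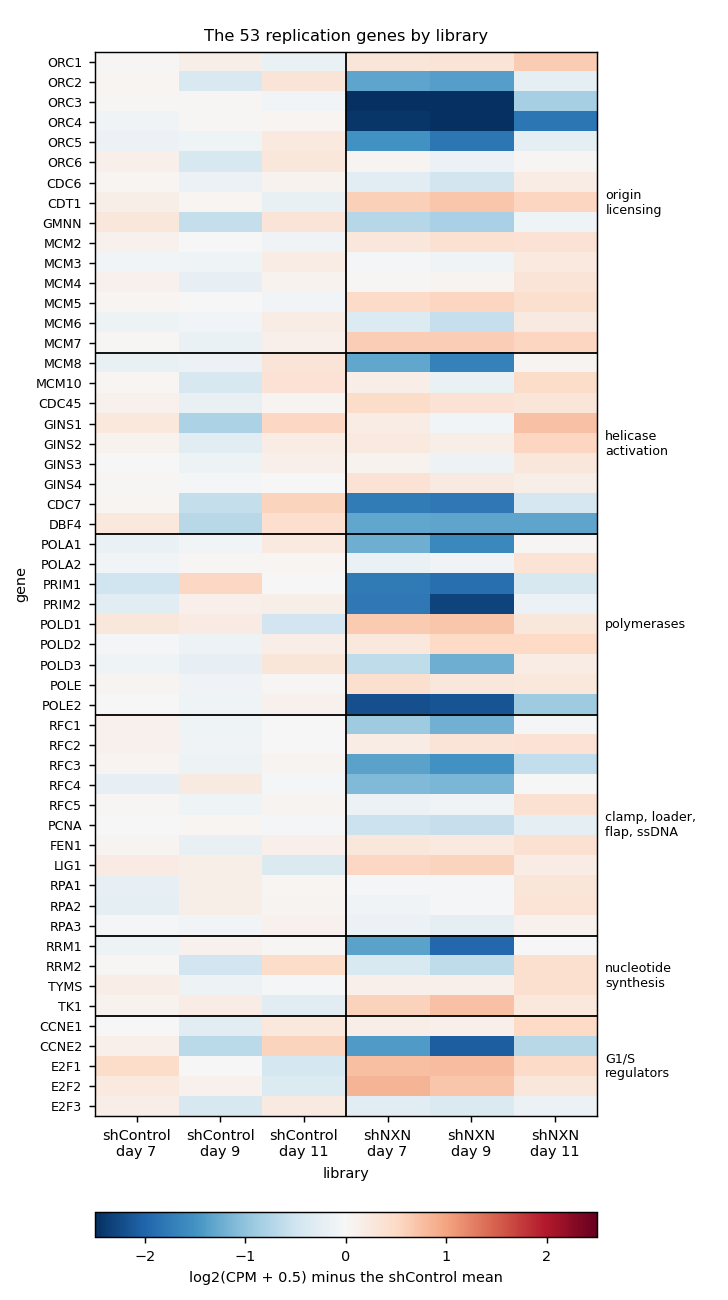
Levels of the 53 replication genes in each of the 6 libraries (columns), as log2(CPM + 0.5) minus the mean of the 3 shControl libraries, with genes (rows) grouped by role and red for higher and blue for lower. The strongest blue lies in the shNXN libraries of days 7 and 9, for ORC3 and ORC4, and the day 11 shNXN library is paler.

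Of the 6 ORC subunits, 4 were called lower with the block and the others were not called. Over all features 17.0% were called lower in that fit. The transcripts of ORC2, ORC3, ORC4 and ORC5 have a GC content of 37.7% to 41.0%. Of the features of lowest GC content (up to 41.9%), 95.4% had a negative log2 fold change, as given below. ORC4, a core subunit of the ring that binds origin DNA, was at 66.5, 72.1 and 73.4 CPM in shControl cells on days 7, 9 and 11 and at 12.7, 11.0 and 19.9 CPM in shNXN cells. The groups did not overlap, and the mean fell from 70.6 ± 3.65 to 14.5 ± 4.75 CPM (SD, n = 3). The log2 fold change of ORC4 was -2.28 (SE 0.25, adjusted p = 0.039 from edgeR), or -2.33 with the block (SE 0.20, adjusted p = 0.0142 from edgeR). This call was kept in 2 of the 6 fits that left out 1 library, with adjusted p values from edgeR between 0.000959 and 0.225, and the log2 fold change stayed between -2.58 and -2.11. ORC4 was not lower to this extent in the FPKM table, as given below.

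ORC3, the subunit next to ORC2 in the complex, was at 33.0, 33.3 and 31.0 CPM in shControl cells and at 5.23, 4.11 and 18.1 CPM in shNXN cells. The day 11 shNXN library stood well above the other shNXN libraries but still below the shControl range. The log2 fold change of ORC3 was -1.83 (SE 0.54, adjusted p = 0.0812 from edgeR) and -2.13 with the block (SE 0.48, adjusted p = 0.0372 from edgeR). ORC2 was at 69.2, 51.3 and 83.6 CPM against 26.6, 25.5 and 56.3 CPM, and ORC5, an ATP-binding subunit, at 17.2, 17.6 and 22.5 CPM against 6.33, 5.03 and 16.2 CPM. For ORC2 the day 11 shNXN library overlapped the shControl range, and for ORC5 it did not. With the block their log2 fold changes were -0.98 and -1.22, with adjusted p values from edgeR of 0.0273 and 0.0425. ORC1, the subunit whose protein is known to be degraded in S phase, had a log2 fold change of 0.43 and ORC6 of -0.04, and neither was called in either fit.

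**Figure D2:**
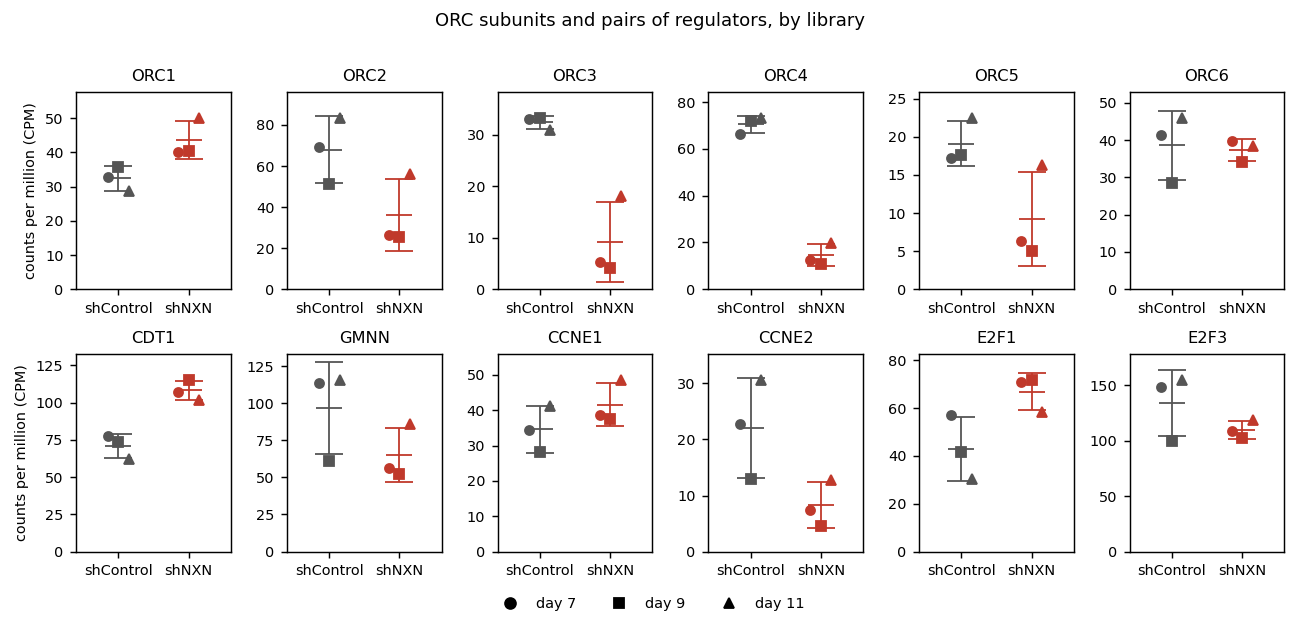
Counts scaled to library size (CPM) of the 6 ORC subunits and of 3 pairs of regulators in each library (circle, day 7, square, day 9, triangle, day 11), with horizontal bars for the mean and the SD of the 3 libraries of a group. ORC4 lies at 66.5 to 73.4 CPM in shControl and 11.0 to 19.9 CPM in shNXN libraries, while ORC1 is higher and ORC6 overlaps.

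Among the loading factors, CDT1, which brings the helicase ring to ORC, was at 107, 115 and 102 CPM in shNXN cells and at 77.8, 73.3 and 61.8 CPM in shControl cells. Every shNXN library was above every shControl library, and the log2 fold change was 0.61 (SE 0.11, adjusted p = 0.026 from edgeR with the block, 0.0601 without it). GMNN (geminin), the inhibitor of CDT1, had a log2 fold change of -0.57 with overlapping groups and was not called. CDC6, the ATPase that loads the ring with CDT1, had a log2 fold change of -0.16.

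The MCM2-7 ring, which is assembled from 1 copy of each subunit, was called for 2 of its 6 subunits. Both were called higher with the block, as were 6.28% of all features. MCM7 was at 374, 326 and 402 CPM in shControl cells and at 563, 560 and 529 CPM in shNXN cells, and MCM5 at 238, 230 and 219 CPM against 318, 334 and 302 CPM. Both were higher in every shNXN library. With the block the log2 fold changes of MCM7 and MCM5 were 0.59 and 0.47, with adjusted p values from edgeR of 0.0277 and 0.0292. MCM2 was at 327, 304 and 286 CPM against 374, 398 and 390 CPM, also without overlap, but at a log2 fold change of 0.34 it was not called (adjusted p = 0.102 from edgeR, 0.0617 with the block). MCM4, the licensing gene with the highest level per length averaged over the 6 libraries (198 FPKM), was at 421, 336 and 415 CPM against 397, 409 and 488 CPM, with a log2 fold change of 0.14. The groups of MCM4 overlapped, as did those of MCM3 (0.05) and MCM6 (-0.20).

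Among the 9 genes of helicase activation, the 2 subunits of the S-phase kinase were called lower with the block and the other 7 were not called. Over all features 17.0% were called lower in that fit. CDC7, the catalytic subunit, was at 18.9, 11.9 and 27.1 CPM in shControl cells and at 5.11, 4.90 and 13.5 CPM in shNXN cells. In CPM the level was lowest on day 9 and highest on day 11 in both groups, though days 7 and 9 were close in shNXN cells. On each day the shNXN library was lower. In FPKM day 7 was lowest in both groups, at 7.57, 8.43 and 10.2 FPKM in shControl cells and 4.90, 5.81 and 7.94 FPKM in shNXN cells. The log2 fold change of CDC7 was -1.30 (SE 0.48, adjusted p = 0.122 from edgeR) and -1.38 with the block (SE 0.23, adjusted p = 0.022 from edgeR). DBF4, its activating subunit, was at 28.1, 14.03 and 31.3 CPM against 9.13, 8.95 and 9.02 CPM, with no overlap and a difference of -1.44 on the log2 scale (adjusted p = 0.0534 from edgeR, 0.0296 with the block). For DBF4 the shNXN libraries were alike on all 3 days, and the FPKM table gave another direction, as given further on.

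GINS4, a GINS subunit and the helicase activation gene with the highest mean FPKM over the 6 libraries, was at 29.7, 28.1 and 29.3 CPM in shControl cells and at 37.2, 34.0 and 32.2 CPM in shNXN cells. The groups did not overlap, and the log2 fold change of 0.25 was not called (adjusted p = 0.28 from edgeR). CDC45, the helicase cofactor, had a log2 fold change of 0.38, MCM10 of 0.14, and GINS1, GINS2 and GINS3 of 0.23, 0.30 and 0.09. MCM8, which belongs to a repair helicase rather than the licensing ring, had a log2 fold change of -0.79, with 18.9 and 14.3 CPM in the shNXN libraries of days 7 and 9 and 49.6 CPM in that of day 11. None of these was called in either fit.

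The polymerase genes differed by subunit within the same enzyme. POLE2, the second subunit of DNA polymerase epsilon, was at 11.3, 10.4 and 12.1 CPM in shControl cells and at 2.07, 2.15 and 5.80 CPM in shNXN cells. The groups did not overlap, and the log2 fold change was -1.75 (SE 0.43, adjusted p = 0.0628 from edgeR) and -1.89 with the block (SE 0.34, adjusted p = 0.0249 from edgeR). POLE, the catalytic subunit of the same polymerase, had a log2 fold change of 0.31, with every shNXN library above every shControl library, and was not called. Of DNA polymerase delta, the catalytic subunit POLD1 was at 93.0, 87.4 and 54.5 CPM against 121, 124 and 93.0 CPM. The day 11 shNXN library of POLD1 lay just above the highest shControl library, and the log2 fold change with the block was 0.55 (adjusted p = 0.0362 from edgeR). POLD2, a structural subunit and the polymerase gene with the highest mean FPKM over the 6 libraries, was at 193, 183 and 223 CPM against 238, 280 and 283 CPM, or 0.42 on the log2 scale (adjusted p = 0.0481 from edgeR with the block). POLD3 had a log2 fold change of -0.46.

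Polymerase alpha and its primase, which lay down the first bases of each strand, were not called in either fit. The log2 fold changes were -1.29 for PRIM1, -1.16 for PRIM2, -0.78 for POLA1 and 0.05 for POLA2. For PRIM1, PRIM2 and POLA1 the shNXN libraries of days 7 and 9 lay below every shControl library, and the day 11 library within the shControl range.

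Among the clamp, loader, flap and single-strand genes, PCNA, the sliding clamp, had the highest level per length of all 53 genes when averaged over the 6 libraries (270 FPKM), though not in shNXN cells alone, where POLD2 did (315 against 233 FPKM). It was at 330.3, 344 and 322 CPM in shControl cells and at 229.8, 223 and 285 CPM in shNXN cells. The groups did not overlap, with a log2 fold change of -0.43 that was not called (SE 0.14, adjusted p = 0.0904 from edgeR, 0.0556 with the block). RFC3, a small subunit of the clamp loader, was at 35.8, 31.2 and 36.0 CPM against 13.2, 11.7 and 22.3 CPM. The log2 fold change of RFC3 was -1.13 (adjusted p = 0.0608 from edgeR) and -1.18 with the block (adjusted p = 0.0239 from edgeR). The other loader subunits had log2 fold changes of -0.63 for RFC1, 0.29 for RFC2, -0.66 for RFC4 and 0.07 for RFC5. LIG1, the ligase that seals Okazaki fragments, was at 124, 119 and 83.0 CPM against 153, 157 and 122 CPM, and its day 11 shNXN library fell within the shControl range. Its log2 fold change was 0.42 with the block (adjusted p = 0.0457 from edgeR). The flap endonuclease FEN1 had a log2 fold change of 0.30, and RPA1, RPA2 and RPA3, which coat single-stranded DNA, of 0.08, 0.08 and -0.08.

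Of the 4 nucleotide synthesis genes, TK1, the S-phase thymidine kinase, was called with the block, where 23.3% of all features were. TK1 was at 122, 131 and 95.3 CPM in shControl cells and at 171, 191 and 137 CPM in shNXN cells, and the groups did not overlap. The log2 fold change was 0.52 (SE 0.10, adjusted p = 0.0261 from edgeR with the block, 0.108 without it). RRM2, the regulated subunit of ribonucleotide reductase and the gene of this role with the highest mean FPKM over the 6 libraries (in shControl cells alone TYMS was higher, at 98.0 against 92.4 FPKM), was at 144, 101 and 195 CPM against 108, 90.8 and 187 CPM, with overlap and a log2 fold change of -0.19. TYMS (thymidylate synthase), which makes the thymidine nucleotide of DNA, was at 136, 112 and 117 CPM against 132, 132 and 160 CPM, with a log2 fold change of 0.21. RRM1, the large reductase subunit, had a log2 fold change of -0.86. Its shNXN libraries were at 67.1, 43.2 and 170 CPM on days 7, 9 and 11, so that the day 11 library was within the shControl range.

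The G1/S regulators differed between close relatives. CCNE2 (cyclin E2) was at 22.7, 12.9 and 30.6 CPM in shControl cells and at 7.42, 4.60 and 12.7 CPM in shNXN cells. It was lower on each day, and its log2 fold change was -1.42 (SE 0.45, adjusted p = 0.0907 from edgeR) and -1.45 with the block (SE 0.17, adjusted p = 0.0147 from edgeR). CCNE1 (cyclin E1), the partner of CDK2 that overlaps CCNE2 in function, was at 34.4, 28.1 and 41.2 CPM against 38.5, 37.5 and 48.5 CPM, with overlapping groups and a log2 fold change of 0.26. E2F1, an activator of S-phase transcription, was at 57.2, 41.5 and 30.4 CPM against 70.9, 71.8 and 58.2 CPM, and E2F2 at 21.9, 19.9 and 14.5 CPM against 33.9, 30.03 and 22.7 CPM. Both were higher without overlap, by 0.68 and 0.62 on the log2 scale with the block (adjusted p = 0.0414 and 0.0345 from edgeR). E2F3, the third activator of the family and the G1/S gene with the highest mean FPKM over the 6 libraries (in shNXN cells alone E2F1 was higher, at 30.4 against 26.5 FPKM), was at 148, 99.4 and 155 CPM against 108, 102 and 119 CPM, a log2 fold change of -0.29 that was not called.

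Pairs of related genes were then set against each other within each library, a choice of pairs made with the values already known. The ratios are therefore given as a description, with no test. The log2 ratio of CCNE1 to CCNE2 averaged 0.70 ± 0.35 for shControl and 2.36 ± 0.51 for shNXN (SD, n = 3), and the shNXN library was higher by 1.71, 1.80 and 1.47 on days 7, 9 and 11. The ratio of E2F1 to E2F3 was -1.65 ± 0.59 and -0.71 ± 0.27 (SD, n = 3), with differences of 0.75, 0.75 and 1.31 on the same days. That of CDT1 to GMNN was -0.39 ± 0.60 and 0.76 ± 0.46 (SD, n = 3), with differences of 1.46, 0.87 and 1.14. All 3 ratios were higher in the shNXN library of every day. The ratios of CCNE1 to CCNE2 and of E2F1 to E2F3 did not overlap between the groups, and those of CDT1 to GMNN did. In each pair the first gene has the transcript of higher GC content (52.9% against 36.9%, 62.5% against 45.2% and 64.9% against 43.6%). After the GC correction with the block, given below, log2 fold changes were 0.005 for CCNE1 and -0.18 for CCNE2. They were 0.29 for E2F1, 0.005 for E2F3, 0.20 for CDT1 and -0.08 for GMNN. The part of GC content in these ratios was not tested.

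The direction of change followed the base composition of the transcripts. The 9 genes called lower with the block had a median GC content of 39.4% in their longest GENCODE 29 transcript (36.9% to 43.7%), and the 9 called higher a median of 59.1% (56.4% to 65.0%), against 48.4% over the tested genes with a GC value. Across the 53 genes Spearman's rho between GC content and log2 fold change was 0.90, and across 12740 tested genes it was 0.79. Genes of 1 library share its depth and base composition and are not replicates. Of the 12 replication genes among the 3185 features of lowest GC content (up to 41.9%), 11 had a negative log2 fold change, where 95.4% of all features did. In the next 3185 features 14 of 20 were negative (73.7% of features), and in the 2 bins of equal size and higher GC content 0 of 12 and 0 of 9 were (19.0% and 5.97%). The signs therefore followed the same order of GC content among the 53 genes as among all genes.

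When the trend of each library with GC content was fitted and removed, edgeR called 0 of the 53 genes and 5 of all features (0.0355%). An unadjusted p under 0.05 was found for 8 of the 53 genes, against 2409 of all 14071 features. With the block as well, 130 features (0.924%) were called, and ORC4 was called among the 53 genes (log2 fold change -1.13, SE 0.14, adjusted p = 0.0446 from edgeR). The genes called higher with the block alone then had log2 fold changes between 0.07 and 0.29, and those called lower between -1.44 and -0.06. POLE2 and ORC3 stayed at -1.44 and -1.11 (adjusted p = 0.0704 and 0.157 from edgeR), while ORC2, RFC3 and CCNE2 moved to -0.06, -0.13 and -0.18. GINS1, with a GC content of 41.4%, moved up to 1.04 (adjusted p = 0.0996 from edgeR). The trend was fitted over the 12740 tested genes with a GC value, and the rest of the 14071 features were tested without correction. After the trend was removed, Spearman's rho with GC content was -0.03 over the 12740 genes (-0.02 with the block). It was still 0.50 across the 53 genes (0.51 with the block). The correction also takes away differences between the cells that happen to follow GC content, and whether that trend came from the cells or from library preparation was not tested.

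**Figure D3:**
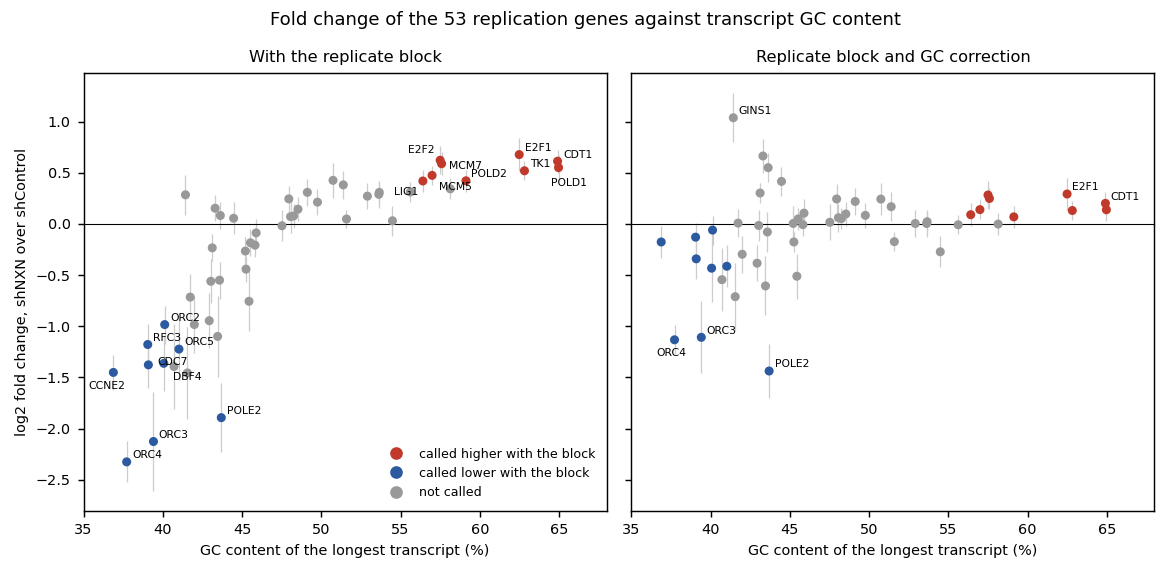
Log2 fold change (shNXN over shControl, with its SE as a vertical line) of each of the 53 genes against the GC content of its longest transcript, with the day as a block (left) and with the GC trend of each library removed as well (right). On the left the genes of lowest GC content reach -2.33 and those of highest GC content lie above 0, and on the right most genes lie near 0 while ORC4, ORC3 and POLE2 stay below -1.

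By day, the genes called lower had a smaller median difference on day 11. The 9 genes called lower with the block had a median log2 difference between the shNXN and shControl library of the day of -1.57 on day 7, -1.39 on day 9 and -0.97 on day 11. Those called higher had 0.42, 0.58 and 0.55. Both sets were called from these same libraries, so that their direction on each day was largely set by the choice. Over all 53 genes the median was -0.09, 0.00 and 0.11, and the number with a negative difference was 30, 26 and 21 (56.6%, 49.1% and 39.6%). Over all features the median was 0.00, -0.00 and 0.06, and 7033, 7069 and 6381 of the 14071 features were negative, the last 2 being 50.2% and 45.3%. ORC3 went from -2.55 and -2.87 on days 7 and 9 to -0.76 on day 11, and RRM1 from -1.21 and -2.06 to -0.02. DBF4 showed another order, with -1.57, -0.62 and -1.74, and its shControl library was lowest on day 9. Across the 53 genes Spearman's rho with GC content was 0.90, 0.83 and 0.88 on the 3 days.

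A change of the difference with the day was tested across all features. With the day as a number, edgeR called 0 of the 53 genes and 0 of 14071 features (0.0%), with 0 and 152 at an unadjusted p under 0.05. The fit had 2 residual degrees of freedom. With day 11 set against days 7 and 9, edgeR called 5 features (0.0355%) and 0 of the 53 genes, of which 12 had an unadjusted p under 0.05 (1888 of all 14071 features did), and ORC3 had the smallest adjusted p among the 53 (0.0926 from edgeR). Without the day 11 shNXN library edgeR called 23 of the 53 genes (43.4%), against 25.8% of all features. Of these 18 were lower (34.0%), against 21.4% of all features, among them PRIM1, PRIM2, POLA1, POLD3, RFC1, RFC4, PCNA, MCM8 and RRM1. The 5 that were higher (9.43%, against 633 of 14383 features) were CDT1, MCM5, MCM7, TK1 and E2F2.

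**Figure D4:**
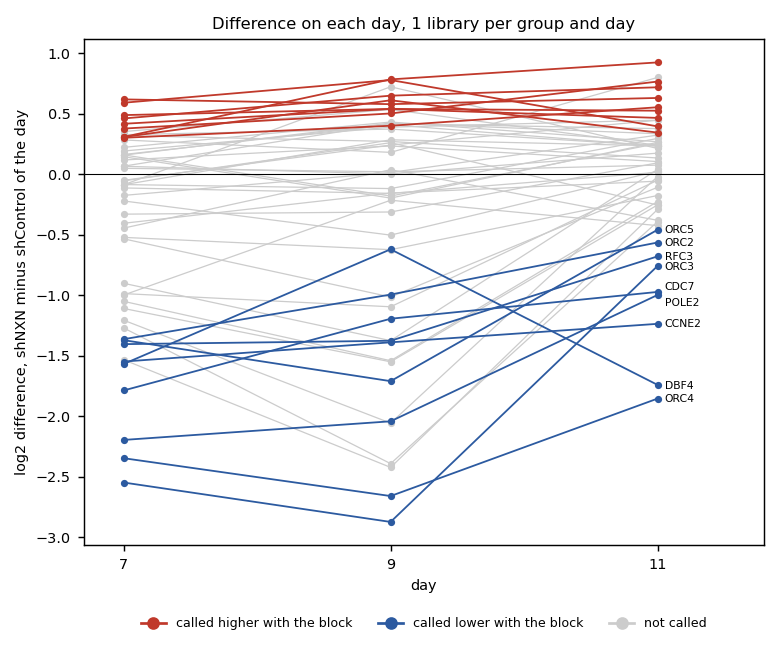
Log2 difference between the shNXN and the shControl library of the same day for each of the 53 genes on days 7, 9 and 11, from CPM with 0.5 added, with 1 library per group and day and no error bar. Lines of the 9 genes called lower (blue) run from -2.55 to -1.36 on day 7 and from -1.86 to -0.46 on day 11. Those of the 9 called higher (red) stay above 0. The calls were made from these same libraries, which largely sets the side of 0.

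Within each group the replication genes also followed the day. Day 9 held the lowest of the 3 shControl libraries for 30 of the 53 genes (56.6%) and the lowest shNXN library for 31 (58.5%), against 35.3% and 39.2% of all features. Day 11 held the highest library for 30 (56.6%) and 39 (73.6%) of the 53 genes, against 39.4% and 48.6% of all features. The summed level of the 53 genes was 5563, 5150 and 5748 CPM in shControl cells on days 7, 9 and 11 and 5370, 5284 and 6348 CPM in shNXN cells. These sums overlapped between the groups. On the FPKM scale the summed level was 2725, 2655 and 2906 FPKM in shControl cells and 3131, 3063 and 3099 FPKM in shNXN cells. Every shNXN library was therefore higher, and day 7 held the highest shNXN sum. The FPKM sum over all features was also higher in every shNXN library. It was 636008, 678216 and 631135 in shControl cells and 750106, 774345 and 688017 in shNXN cells. A higher FPKM sum was therefore not particular to the 53 genes.

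The count and FPKM tables gave different answers for a few genes. The median absolute difference between the log2 fold change from counts and that on the log2(FPKM + 1) scale was 0.10, but it was over 1 for ORC4 and DBF4, and the sign differed for ORC6, DBF4, POLA2, RPA3, RRM1 and RRM2. ORC4 was at 27.9, 33.8 and 36.6 FPKM in shControl cells and at 28.3, 29.2 and 23.7 FPKM in shNXN cells. These groups overlapped, with a difference of -0.26 on this scale (adjusted p = 0.325 from limma), where the counts gave -2.28. DBF4 was at 14.8, 9.13 and 17.2 FPKM against 18.4, 16.8 and 10.1 FPKM, and RRM1 at 68.3, 85.6 and 81.2 FPKM against 80.9, 65.5 and 92.7 FPKM. Their differences on this scale were 0.13 and 0.02, against -1.44 and -0.86 from the counts. RRM2 was at 84.4, 83.7 and 109 FPKM against 169, 151 and 149 FPKM, higher in every shNXN library by 0.76 (adjusted p = 0.0662 from limma). Limma on this scale called 1 of the 53 genes, POLE2 (-1.69, SE 0.31, adjusted p = 0.0461 from limma), and 228 of 12716 features (1.79%). POLE2 was at 9.21, 11.2 and 10.7 FPKM in shControl cells and at 1.6, 1.89 and 4.82 FPKM in shNXN cells, so that both tables gave lower levels. GINS4 also differed in size, with 1.07 on the FPKM scale against 0.25 from the counts. CDC7, called lower with the block, was at -0.44 on the FPKM scale against -1.30. PRIM1 was at -0.68 against -1.29 and PRIM2 at -0.61 against -1.16. ORC2 went the other way, at -1.39 on the FPKM scale against -0.91 from the counts. An FPKM value depends on the transcript lengths assigned to a gene, which the sources used here do not give, and their part in these differences was not tested. The called genes CDT1, MCM5, MCM7, POLD1, POLD2, LIG1, TK1, E2F1 and E2F2 had differences of 0.44 to 0.67 on the FPKM scale. Features in general also lay higher in shNXN cells on this scale. The median difference was 0.15, with 7788 of 12716 features above 0, against a median of 0.03 from the counts.

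**Figure D5:**
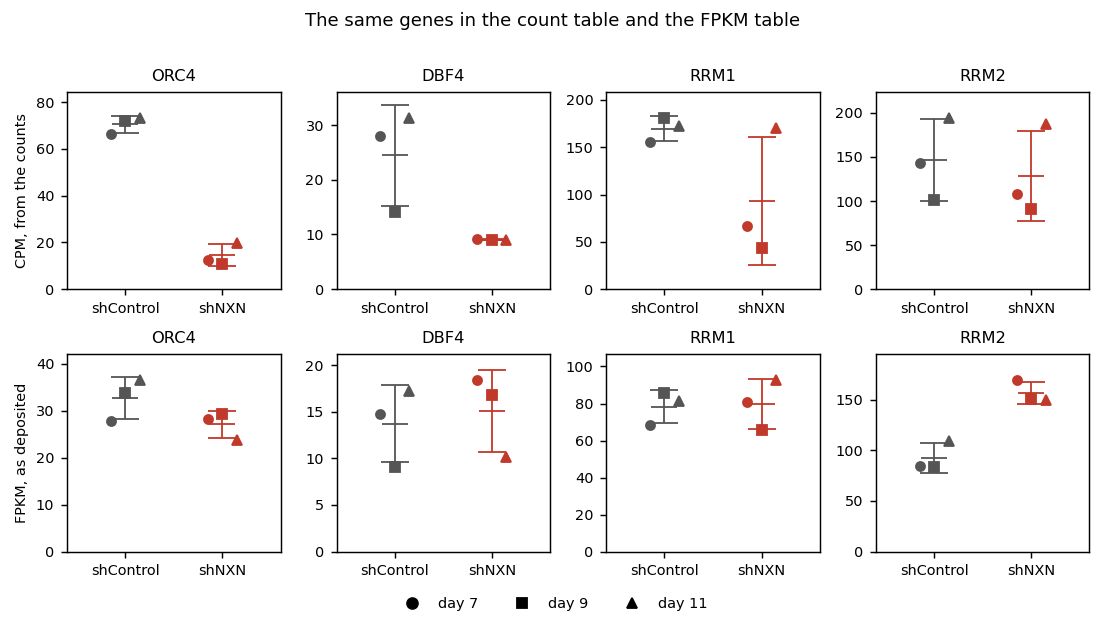
Levels of ORC4, DBF4, RRM1 and RRM2 in each library (circle, day 7, square, day 9, triangle, day 11) from the count table as CPM (top) and from the deposited FPKM table (bottom), with bars for the mean and SD of the 3 libraries of a group. ORC4 separates the groups at the top and overlaps at the bottom, and RRM2 overlaps at the top and is higher in shNXN cells at the bottom (149 to 169 against 83.7 to 109 FPKM).

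Levels per length, averaged over the 6 libraries, ran from 5.02 FPKM for E2F2 to 270 FPKM for PCNA, with a median of 29.3 FPKM over the 53 genes. PCNA, POLD2 (266 FPKM), MCM4 (198 FPKM), MCM7 (188 FPKM) and MCM3 (151 FPKM) had the highest levels. PCNA was at 303, 312 and 307 FPKM in shControl cells and at 223, 215 and 259.7 FPKM in shNXN cells, and POLD2 at 203.6, 193.5 and 254.5 FPKM and at 307, 339.9 and 299 FPKM. PCNA therefore lay above POLD2 in every shControl library and below it in every shNXN library. MCM4 lay above MCM7 in every library, though by little in shNXN cells (241.7, 230.3 and 207.8 against 240.6, 229.3 and 204.9 FPKM). Their ranges overlapped within each group. E2F2, POLE2 (6.58 FPKM), CDC7 (7.47 FPKM) and CCNE2 (8.73 FPKM) had the lowest levels over the 6 libraries. The order differed between the groups, with E2F2 lowest in shControl cells (3.88 FPKM) and POLE2 lowest in shNXN cells (2.77 FPKM, against 6.17 FPKM for E2F2).

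Other genes of the pathway were read from 3 further lists of 97 genes, of which 95 were tested. Without the block 3 of them (3.16%) were called by edgeR, against 3.39% of all features. With it 26 (27.4%) were called, against 23.3%, of which 9 were higher (9.47%, against 6.28%) and 17 lower (17.9%, against 17.0%). MTBP, a partner of the origin firing factor TICRR, was lower at 4.38, 3.98 and 6.19 CPM in shNXN cells against 17.8, 18.3 and 18.8 CPM in shControl cells, or -1.91 on the log2 scale (adjusted p = 0.0393 from edgeR). RB1, the E2F repressor known to be lost in this line, was low in both groups and lower in shNXN cells, at 0.49, 0.67 and 0.97 CPM against 3.21, 2.03 and 3.74 CPM, or -2.07 on the log2 scale (adjusted p = 0.0482 from edgeR). IMPDH1, an enzyme of guanine nucleotide synthesis, was higher at 54.0, 58.5 and 51.1 CPM in shNXN cells against 34.6, 31.3 and 33.4 CPM, or 0.72 on the log2 scale (adjusted p = 0.0494 from edgeR).

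Of the 34 other fork and origin factors tested, 2 were called higher and 8 lower with the block, among them ATAD5 (-1.87), which unloads PCNA, MMS22L (-2.08), DNA2 (-1.86), a nuclease of flap processing, and the histone chaperone ASF1A (-1.32). Of the 32 other nucleotide synthesis genes, 7 were called higher and 5 lower, the latter including PPAT (-1.06), the first enzyme of purine synthesis, RRM2B (-1.66), a further reductase subunit, and CMPK1 (-0.72). Of the 29 other G1/S regulators, 4 were called, all lower. After GC correction with the block, 0 of the 95 genes were called by edgeR. An unadjusted p under 0.05 was found for 26 of them, against 3011 of all 14071 features. Of the 17 that had been called lower, 5 had a log2 fold change above 0, among them PPAT (0.51), CMPK1 (0.46) and ASF1A (0.15). On the log2(FPKM + 1) scale ASF1A was also on the other side of 0, at 0.59.

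Some of the 53 genes share exonic bases with a neighbour, and the sources do not say whether reads were counted by strand. ENOSF1 lies opposite to TYMS over 39.1% of its exonic bases, and INTS8 opposite to CCNE2 over 37.0%. Reads of these pairs could not be told apart without strand. For the other genes the shared part was at most 8.94%, for MCM7 with AP4M1. POLD1 shares 8.64% of its exonic bases with a neighbour on the same strand, FEN1 1.98% with FADS2 and PRIM1 1.35% with NACA. Reads of these same-strand overlaps could not be told apart by strand either.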

How the data were processed

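RNA of 6 Hep3B libraries, 3 shControl and 3 shNXN, was sequenced after SMARTer mRNA-Seq library preparation. The authors deposited an expected count per feature and library and, in a second table, FPKM values, and both are used as given. The aligner, counting program and annotation are not given in the sources used here, and the submitters' processing notes name the mouse build GRCm38 (mm10) although the identifiers are human, so no coordinates were taken from the files. Groups and days came from the labels. After rounding, the expected counts entered edgeR's quasi-likelihood test (edgeR 4.0.16 under R 4.3.3) with TMM factors, filterByExpr and Benjamini-Hochberg adjustment over 14071 features. SEs were obtained by dividing a log2 fold change by the root of its F statistic. The study states no design, so the fit without a block came first. The replicate number is the day, as the labels give it, and deviations of same-day libraries correlated at 0.304, 0.309 and 0.451, so the fit with the day as a block is given beside it where calls change.

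For the GC correction, each library's deviations were fitted on the GC content of the longest GENCODE 29 transcript by a spline (natural, 5 degrees of freedom), which entered the model as an offset. FPKM were tested with limma 3.58.1 on log2(FPKM + 1) for features with a mean of at least 1 FPKM, which understates changes of low genes. Daily differences used log2(CPM + 0.5). Other alternatives were DESeq2 1.42.0, RLE factors, library size only, other filters, a pseudocount of 0.1 and leaving out each library. Chi-square per gene between libraries of the same group, which are of different days, ran from 21.3 to 82.8. No 2 libraries of a group therefore agreed within sampling noise, and any difference between days is part of these values. There were 0 columns without a sample.

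The 53 genes, the other lists, the motifs and the markers were chosen with earlier results of these data known. Each of the 53 genes is named, and values of every library are given for genes called in either fit, the gene with the highest mean FPKM over the 6 libraries in each role, and PCNA, MCM2, RRM2, TYMS, CCNE1 and E2F1. Of the other lists, genes called without the block, the 10 with the smallest p with it and RB1 are named. The rule names 1 more gene by its symbol, which is not reported here.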

Additional observations from a re-analysis of the deposited data

How the results depend on the processing

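Across 17 alternatives 32 of the 53 genes kept the sign of their log2 fold change and 21 changed it in at least 1. With the replicate block (day) edgeR called 18 of the 53 genes, 3272 of all features and 26 of the other pathway genes, against 1, 477 and 3. DESeq2 called 14, 3311 and 31, RLE factors 4, 826 and 6, library size only 5, 929 and 7, and no filter 3, 818 and 7. Limma called 0 of the 53 genes, 7 features and 0 other genes on log2(FPKM + 0.1), 0, 0 and 0 without a filter, and 228 features and 0 other genes on log2(FPKM + 1). GC correction left 0, 5 and 0, and with the block 130 features and 0 other genes. Leaving out 1 library gave 0 to 23 of the 53 genes, 0 to 3706 features and 0 to 32 other genes, and medians of the 53 genes between -0.0749 and 0.1598. The highest of these counts came without the day 11 shNXN library. Counts without any 1 of the other libraries were at most 2 of the 53 genes (without the day 9 shControl library).

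On the FPKM scale ORC6 (0.0129, or 0.0145 with a pseudocount of 0.1), DBF4 (0.1336, 0.1426), POLA2 (-0.2342, -0.2441), RPA3 (0.0315, 0.0323), RRM1 (0.0164, 0.0165) and RRM2 (0.7633, 0.7692) reversed. After GC correction CDC6 (0.0509, or 0.0496 with the block), MCM3 (-0.1729, -0.1732), MCM6 (0.3016, 0.3023), POLA2 (-0.2447, -0.2719), POLE (-0.0089, -0.0079), RFC1 (0.0183, 0.0083), RPA3 (0.104, 0.1057), POLD3 (0.0144) and CCNE1 (-0.0029) reversed, and with the block ORC6 (0.0166), MCM2 (-0.0013) and E2F3 (0.0048). With 1 library left out the range crossed 0 for ORC6 (-0.197 to 0.163), MCM3 (-0.0584 to 0.2001), MCM10 (-0.0272 to 0.396), GINS1 (-0.0603 to 0.543), GINS3 (-0.0247 to 0.208), POLA2 (-0.126 to 0.146), RFC5 (-0.114 to 0.173), RPA1 (-0.044 to 0.174), RPA2 (-0.0749 to 0.172), RPA3 (-0.191 to 0.0279) and RRM2 (-0.557 to 0.119). The causes were not tested. With 1 library per group and day, no error can be given for a single day.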
